A study of Mus musculus with 10 samples.

Results

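Tle3, Tns1, Tmem151a and Ebf2 are 4 of the 22367 protein-coding genes of the mouse annotation, and 14 of the 8876 Suz12 binding sites of the deposited list lie in their gene bodies or within 5 kb of them. They were proposed as loci tested for Suz12 that stayed after Pcl3 knockdown, and the study's primer list gives a ChIP primer pair for each. From Suz12 ChIP-qRT-PCR the study reports Tle3, Tns1 and Tmem151a as targets that Pcl3 did not affect. Those PCR values were not analysed here. The loci were therefore picked with the Suz12 comparison in view, so their places in the Suz12-depleted list are given as a description and were not tested. All 3 Suz12 sites of Tle3, 2 of the 5 at Tns1 and 2 of the 4 at Tmem151a were outside the Suz12-depleted list. That list held 64.5% of all Suz12 sites. For these 7 sites no decrease was called, which does not show that Suz12 stayed. The weakest of them at Tns1 and at Tmem151a had p-values at which 2.93% and 1.15% of like Suz12 sites were in the list. The description did not hold for Ebf2, both of whose Suz12 sites were in the depleted list. The study gives the Ebf2 primers for H3K4me3. The 4 genes are therefore called here by their names.

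ChIP-seq sequences the DNA that an antibody pulls down with chromatin, and the 10 libraries of the series came from mouse ESCs. Suz12 and H3K27me3 were measured in Suz12Suz12TAP/+ cells made from the BayGenomics gene trap line XG122, in which 1 allele of Suz12 carries a TAP tag. These cells expressed either Pcl3-shRNA or a scramble control. The study reports that Pcl3-shRNA ESCs also had more cells of differentiated morphology and less Suz12 mRNA and protein. It states that the lower Suz12 level may account for part of the reduced Suz12 binding, which was not tested here. Tagged Suz12 was pulled down with the FlagM2 antibody. Pcl3 was measured with FlagM2 in other cells than Suz12, E14 ESCs that expressed Pcl3-TAP while shRNA6 or shRNA7 depleted wild-type Pcl3. Each antibody gave 1 ChIP library per cell population, with 1 input DNA library, and the 2 Pcl3-TAP libraries share 1 site list. For the Suz12-TAP cells with Pcl3-shRNA, the input library is labelled shRNA6, while the ChIP libraries carry no shRNA number. With no replicates no SD or test across samples could be given, and intervals below cover counting error over sites of the same libraries. Only site positions and p-values were available, so the read depth behind a site is not known, and ESC marker genes could not be checked because the lists hold no expression. A site outside the depleted list is one that was not called as decreased at the authors' cutoff of 1e-07, which does not show that Suz12 was equal in both cell populations.

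Suz12 is a core subunit of PRC2, the Polycomb complex that methylates lysine 27 of histone H3, and the resulting mark, H3K27me3, accompanies silenced developmental genes in ESCs. Pcl3 is a Polycomb-like protein that associates with PRC2, and mammalian PRC2 is found mostly at CpG-rich DNA around gene starts. Tle3 encodes a corepressor of the Groucho family, which is recruited by DNA-binding factors such as those of Wnt and Notch signaling. Tns1 encodes tensin, which links integrins at focal adhesions to the actin cytoskeleton. Tmem151a encodes a transmembrane protein. Ebf2 encodes a helix-loop-helix transcription factor of the early B-cell factor family with roles in neurons, bone and brown fat.

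The ChIP amplicons of Tle3, Tns1 and Tmem151a are shown because they fix which Suz12 site of each gene was probed by PCR in the study. Each primer matched the mm9 genome once. Primers are from the study's primer list, the amplicons between them are mm9 sequence on the plus strand, and every CpG is in capitals. The Tle3 amplicon at chr9:61221250-61221379 spans 130 bp that overlap exon sequence, 1124 bp after the gene start at its center. For this amplicon only the primers are shown. The Tns1 amplicon at chr1:74114782-74114966 spans 185 bp of an intron, 56147 bp into the gene. The Tmem151a amplicon at chr19:5081873-5082075 spans 203 bp that overlap a coding exon, 3557 bp into the gene.
Tle3 forward primer: tcCGcaaggcagacatcCGgt
Tle3 reverse primer: caCGCGCGCGcaccataaag
Tns1 amplicon: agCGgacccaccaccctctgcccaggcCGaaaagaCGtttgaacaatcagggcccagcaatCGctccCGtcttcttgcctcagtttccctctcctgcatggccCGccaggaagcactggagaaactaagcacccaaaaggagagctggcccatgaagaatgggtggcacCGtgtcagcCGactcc
Tmem151a amplicon: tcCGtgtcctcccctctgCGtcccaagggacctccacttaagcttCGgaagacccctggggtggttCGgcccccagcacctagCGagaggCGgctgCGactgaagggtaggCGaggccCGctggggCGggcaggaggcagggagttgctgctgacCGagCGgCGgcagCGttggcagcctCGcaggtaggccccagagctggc

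These amplicons differed in CpG content. The Tmem151a amplicon held 15 CpG, or 7.39 per 100 bp, the most of the 3. The Tle3 amplicon held 7 (5.38 per 100 bp) and the Tns1 amplicon 8 (4.32 per 100 bp). The Tle3 reverse primer alone carried 4 CpG in 1 run.

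For contrast, 3 stretches of 150 bp of mm9 were read at sites of the same genes that were in the depleted list, again with CpG in capitals. The first is the 150 bp before the Tns1 start on the minus strand, chr1:74171022-74171171, with 24 CpG. The next is the center of the strongest Tns1 site, in an intron, on the plus strand, chr1:74145551-74145700, with 2 CpG. The last is the 150 bp before the Tmem151a start on the minus strand, chr19:5085532-5085681, with 19 CpG.
Tns1 before the start: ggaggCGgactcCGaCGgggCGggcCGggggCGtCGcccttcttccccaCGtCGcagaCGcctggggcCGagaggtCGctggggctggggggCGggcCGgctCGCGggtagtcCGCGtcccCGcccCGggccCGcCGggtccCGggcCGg
Tns1 strongest site: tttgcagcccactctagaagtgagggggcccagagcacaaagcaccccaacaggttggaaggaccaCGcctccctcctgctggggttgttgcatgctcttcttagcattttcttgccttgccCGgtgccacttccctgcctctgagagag
Tmem151a before the start: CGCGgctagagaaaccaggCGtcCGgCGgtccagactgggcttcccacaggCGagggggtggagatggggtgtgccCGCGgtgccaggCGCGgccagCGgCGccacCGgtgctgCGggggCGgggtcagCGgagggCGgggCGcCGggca
Per 100 bp these stretches held 16 CpG before the Tns1 start, 1.33 at the strongest Tns1 site and 12.7 before the Tmem151a start. The stretches of densest and of sparsest CpG shown were thus both in sites of the depleted list. These stretches were picked by place, and none is shown for the Tle3 start, so nothing about the list is read from this.

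At Tle3 (ENSMUSG00000032280.9, chr9:61220190-61266297, plus strand) Suz12 bound at 3 sites around the gene start, and none was in the Suz12-depleted list. The strongest, chr9:61220151-61222550, was 2400 bp wide, covered the gene start with coding exon and UTR, and held the amplicon. Its deposited p-value of 2.84e-58 placed it 2703rd of 8876 Suz12 sites. For Suz12 and Pcl3 sites the p-value printed is that of binding over input, and for H3K27me3-depleted sites it is that of the authors' comparison of scramble with Pcl3-shRNA cells. A site of 800 bp at chr9:61218851-61219650 (p-value 1.7e-18, centered at −0.94 kb from the start) lay over Gm10655, a gene on the opposite strand whose start is at −190 bp from that of Tle3. A site of 900 bp at chr9:61217051-61217950 (p-value 5.43e-22, centered at −2.69 kb) lay between genes. Alone of the 4 genes, Tle3 had neither a depleted Suz12 site nor a Pcl3 or H3K27me3-depleted site in its window.

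The chromosome around Tle3 was empty of sites over a long distance. The nearest Suz12 site outside the window, chr9:60642201-60643250 (p-value 2.03e-24), was 576940 bp from the gene and was in the depleted list. The nearest Pcl3 site began 585740 bp away and the nearest H3K27me3-depleted site 2665554 bp away. From center to center the amplicon site was 587 kb from Pcl3, and 2.6% of the 500 Suz12 sites of like p-value were farther from one.

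At Tns1 (ENSMUSG00000055322.7, chr1:73956805-74171021, minus strand) Suz12 bound at 5 sites spread over the first 88 kb of a gene of 214217 bp. Of these, 3 were in the depleted list. The site at the gene start, chr1:74170401-74172300, was 1900 bp wide (p-value 3.25e-69, depleted) and also reached the UTR of Rufy4, a neighboring gene in the opposite direction. The strongest, chr1:74144401-74146850, lay in an intron 25.4 kb into the gene and was 2450 bp wide (p-value 2.44e-136, rank 1247, depleted). The last depleted site, chr1:74083051-74084100, was 1050 bp of intron 87.4 kb into the gene (p-value 2.35e-37).

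The Tns1 sites outside the depleted list lay between and beside these. The amplicon site, chr1:74114301-74115950, was 1650 bp wide over a coding exon 55.9 kb into the gene (p-value 1.71e-48, rank 3090). Its nearest depleted site was 30.5 kb away. A weak site of 450 bp at chr1:74143151-74143600 (p-value 1.08e-08, rank 8251) lay 2250 bp from the center of the strongest, depleted one. The amplicon therefore probed a site of intermediate p-value that was weaker than the depleted sites at the start and at 25.4 kb, and stronger than the depleted site at 87.4 kb.

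Tns1 was the member with the most Pcl3 sites, which numbered 4 and were all in its first 28 kb. The Pcl3 site at chr1:74144601-74146150 (p-value 4.6e-47) was centered 250 bp from the strongest Suz12 site. The Pcl3 site at chr1:74170551-74171550 (p-value 2.86e-20) was centered 300 bp from the Suz12 site at the gene start. A weaker Pcl3 site at chr1:74143151-74143750 (p-value 8.84e-11) was centered 75 bp from the weak Suz12 site outside the depleted list, and another, at chr1:74155451-74155950 (p-value 6.8e-09), had no Suz12 site. From the amplicon site the nearest Pcl3 center was 28.3 kb away, and 35% of Suz12 sites of like p-value were farther from one. The depleted site at 87.4 kb was 59875 bp from the nearest Pcl3 center. No H3K27me3-depleted site lay in the Tns1 window.

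At Tmem151a (ENSMUSG00000061451.7, chr19:5070859-5085531, minus strand) Suz12 bound at 4 sites within 19 kb, and 2 were in the depleted list. The site at the gene start, chr19:5084551-5086100, was 1550 bp wide (p-value 2.07e-52, rank 2932, depleted). The amplicon site, chr19:5081451-5083300, was centered 3.15 kb into the gene, was 1850 bp wide (p-value 7.27e-45, rank 3268) and was outside the depleted list. Their centers were 2950 bp apart. A site of 400 bp, the smallest width in the list, lay at chr19:5071551-5071950 near the end of the gene (p-value 4.02e-08, rank 8546, outside the list). The start site and the amplicon site of Tmem151a were thus neighbors of similar p-value that differed in their place in the depleted list.

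The strongest Suz12 site in the Tmem151a window belonged by position to its neighbor. It lay at chr19:5067351-5069300 over Cd248, which encodes the stromal surface glycoprotein endosialin, was 1950 bp wide (p-value 1.15e-72, rank 2280) and was depleted. The Pcl3 site of the window at chr19:5068101-5068650 (p-value 6.12e-10) was centered 50 bp from it, and the H3K27me3-depleted site at chr19:5068201-5069300 (p-value 9.95e-09) was centered 425 bp from it. The amplicon site was 14000 bp from that Pcl3 center, and 42.2% of Suz12 sites of like p-value were farther from one. The depleted site at the Tmem151a start was 16950 bp from it. Over the gene body alone, or with 2 kb flanks, Tmem151a had no Pcl3 site. Yif1a, which starts 3022 bp from Tmem151a, shares the window, and none of the 4 sites overlapped its gene body.

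At Ebf2 (ENSMUSG00000022053.6, chr14:67852129-68048604, plus strand) Suz12 covered the gene start as a broad domain. The amplicon site, chr14:67849901-67858100, was 8200 bp wide and its p-value was written as 0, as at 435 of 8876 sites, which share the first rank. A further Suz12 site, chr14:67847801-67849800, was 2000 bp wide (p-value 2.7e-97, rank 1768) and was centered at −3.33 kb from the start. Both were in the depleted list. A single Pcl3 site at chr14:67848001-67858300, 10300 bp wide and with p written as 0, shared bases with both, and its center was 850 bp from that of the broad site and 4350 bp from that of the upstream one.

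Ebf2 was also the member with 2 H3K27me3-depleted sites, the sites at which H3K27me3 was called lower in Pcl3-shRNA than in scramble cells. The first, chr14:67850051-67851650 (p-value 3.37e-10), held the Ebf2 amplicon. The second, chr14:67852401-67853400 (p-value 8.96e-08), overlapped a UTR just after the gene start. Gm6878, on the opposite strand inside the Ebf2 body and starting 81419 bp after its start, had none of these sites.

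The window of 5 kb left few sites close outside it. The nearest Suz12 site beyond it was 17759 bp from the Tmem151a body (p-value 6.53e-12), 265080 bp from that of Tns1 (p-value 2.76e-09) and 321629 bp from that of Ebf2 (p-value 2.91e-61, depleted).

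**Figure D1:**
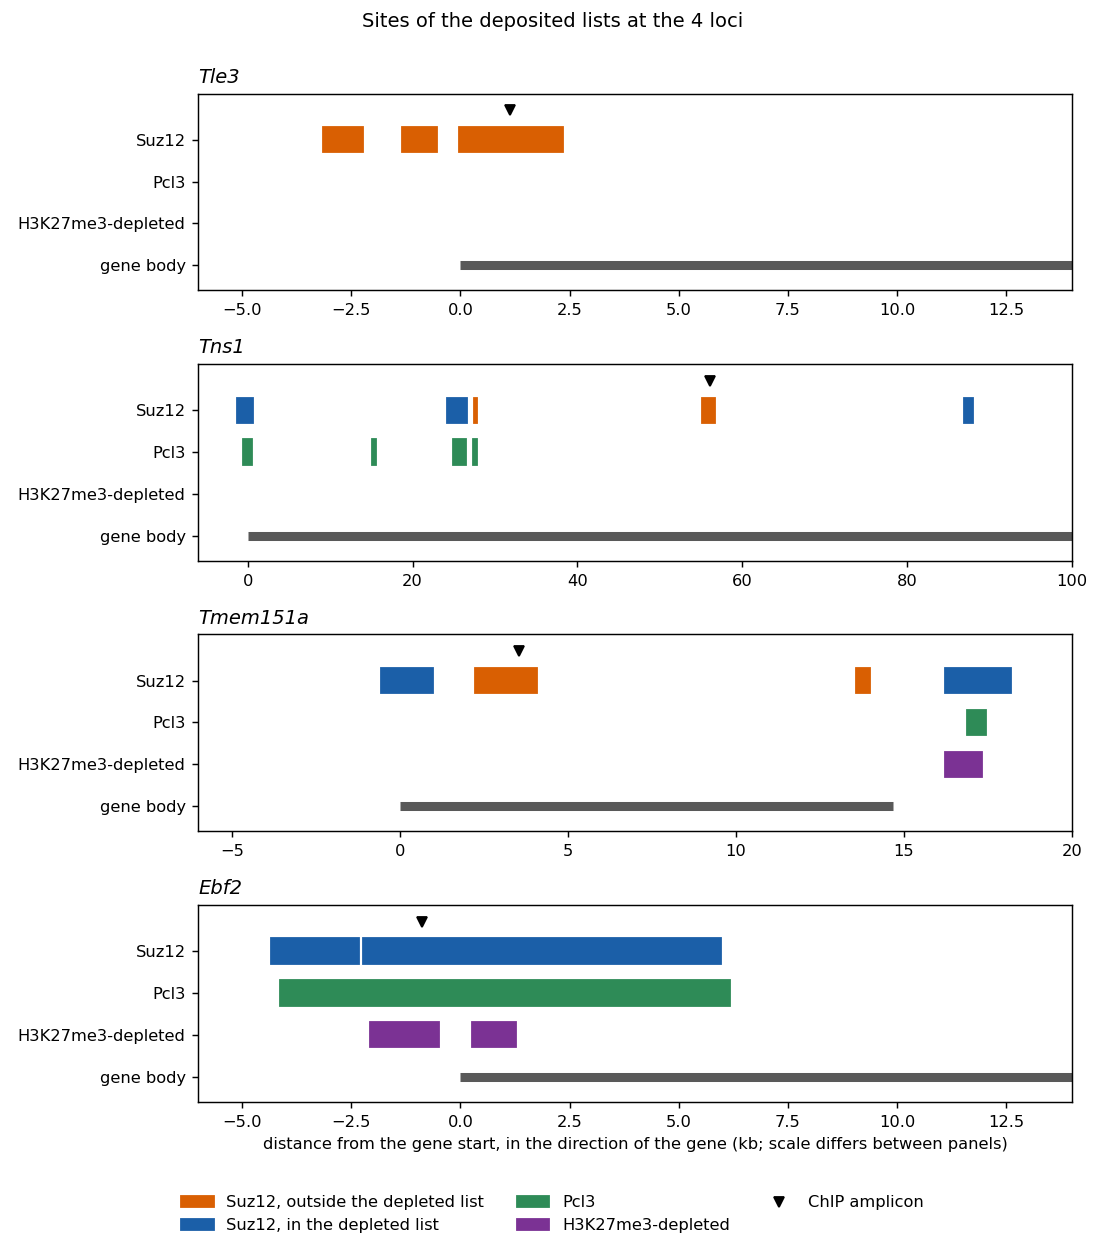
Sites of the 4 lists along each gene, with the distance from the gene start in kb in the direction of the gene on the horizontal axis (scales differ between panels) and 1 row for each kind of site. Orange Suz12 bars are outside the depleted list and blue ones in it. All 3 Tle3 bars are orange, both Ebf2 bars are blue, and the amplicons of Tns1 and Tmem151a (triangles) sit on orange bars with blue bars on either side.

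Over the 4 genes, the depleted list held 7 of 14 Suz12 sites, against 64.5% of all 8876 Suz12 sites. By gene, 3 of 4 had a depleted site, against 71.7% of the 6442 genes with a Suz12 site, which were 28.8% of all protein-coding genes. The loci were picked on this contrast, and nothing is read from these counts. A Pcl3 center lay within 2 kb of 4 of the 7 depleted sites (the start site and the strongest site of Tns1, the Cd248 site and the broad Ebf2 site) and of 1 of the 7 sites outside the list, the weak Tns1 site, against 44.9% of all Suz12 sites. A Pcl3 site lay in the window of 3 of 4 genes, against 47.7% of genes with a Suz12 site. An H3K27me3-depleted center lay within 2 kb of 2 of the 7 depleted sites and of 0 of the other 7, against 7.37% of all Suz12 sites, and 2 of 4 genes had such a site in the window, against 10.5%.

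Genes with sites on both sides were common among genes with several. Of 696 genes with at least 3 Suz12 sites, 505 (72.6%) had some in the depleted list and some outside it, as Tns1 and Tmem151a did. Another 164 had all sites in the list, and 27 (3.88%) had none in it, as Tle3 did. Of 1788 genes with at least 2 sites, 593 had all in the list, as Ebf2 did.

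Presence in the depleted list went with the strength of Suz12 binding across the series, so each member site was set beside the 500 Suz12 sites nearest to it in −log10 p (ties kept). Among the sites like the Tle3 amplicon site, 493 of 500 or 98.6% were in the depleted list (95% Wilson interval 97.1% to 99.3%). For the Tns1 amplicon site the share was 97.8% (96.1% to 98.8%, 489 of 500), and for the Tmem151a amplicon site 97.2% (95.4% to 98.3%, 486 of 500). For the Ebf2 amplicon site it was 500 of 500. At the p-values of the Tle3, Tns1 and Tmem151a amplicons, sites outside the list were thus a small group of 7, 11 and 14 sites.

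The remaining member sites spanned the range. Sites like the 2 upstream Tle3 sites were in the list in 66.5% and 56.0% of cases, and sites like the weak Tns1 and Tmem151a sites in 2.93% and 1.15%. For the depleted sites of Tns1 the shares were 94.0%, 100% and 99.4%, and for those of Tmem151a 99.8% and 98.0%. The upstream Ebf2 site had a share of 99.8%.

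Ranked among the 3154 Suz12 sites outside the depleted list, the 3 amplicon sites were near the strong end. Only 5 of the 3154 (0.159%) had a smaller p-value than the Tle3 site, 10 than the Tns1 site and 15 than the Tmem151a site. Of the 5 stronger than Tle3, 4 had a Pcl3 center within 2 kb and 1 did not. The other 4 member sites outside the list had 254 and 461 stronger sites (Tle3), 2538 (Tns1) and 2827 (Tmem151a).

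**Figure D2:**
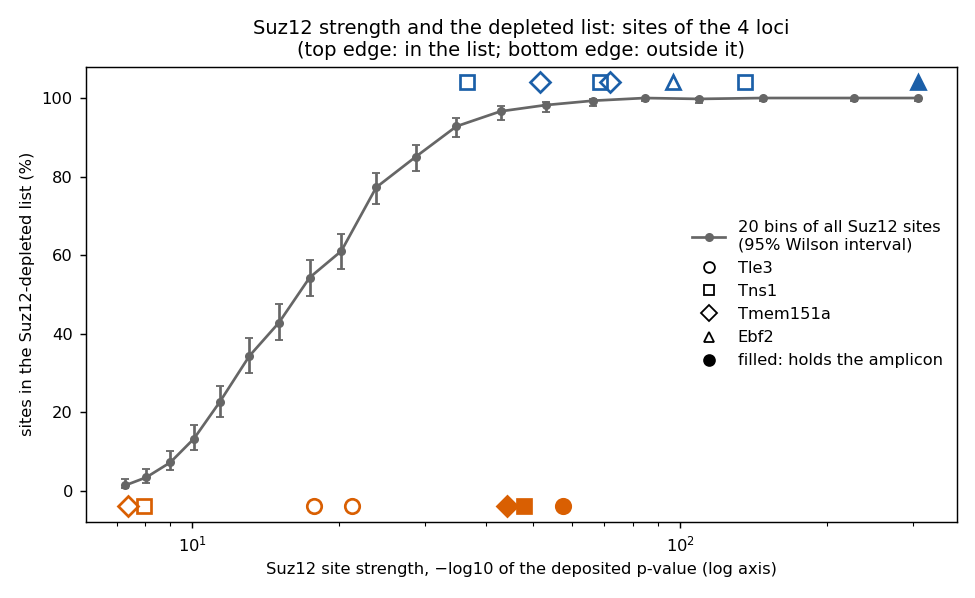
Percent of Suz12 sites also found in the depleted list (vertical axis) against −log10 of the Suz12 p-value (horizontal log axis) for 20 bins of all Suz12 sites, with 95% Wilson intervals, and the 14 member sites at the top edge if in the list or the bottom edge if outside it. P-values written as 0 are placed at 307.2. The share rises from 1.35% in the weakest bin to 100% in the strongest, and the filled Tle3, Tns1 and Tmem151a symbols sit at the bottom edge where the bins are at 96.6% or above.

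Pcl3 near Suz12 also went with strength. Among the 500 sites like the Tle3 amplicon site, 64.4% (60.1% to 68.5%) had a Pcl3 center within 2 kb. The share was 55.8% (51.4% to 60.1%) for the Tns1 amplicon site and 50.2% (45.8% to 54.6%) for the Tmem151a amplicon site. These 3 sites had none. For the strongest sites of Tns1, Tmem151a and Ebf2, each of which had a Pcl3 center, the shares were 91.2%, 72.6% and 87.8%.

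The sites of like p-value were then divided by Pcl3, which was decided on with the data already seen. Of 178 sites like the Tle3 amplicon site without Pcl3, 175 or 98.3% (95.2% to 99.4%) were in the depleted list, and of 322 with Pcl3, 318 or 98.8% were. For Tns1 the share without Pcl3 was 216 of 221 or 97.7% (94.8% to 99.0%) and with Pcl3 97.8%. For Tmem151a it was 241 of 249 or 96.8% (93.8% to 98.4%) and with Pcl3 97.6%. These shares are close to 100%, which leaves little room for one to exceed the other. At the lower p-values of the other Tle3 sites, where the shares were not near either limit, 244 of 377 sites without Pcl3 were in the list around the site at −2.69 kb, or 64.7% (59.8% to 69.4%), against 90 of 125 with Pcl3, or 72.0% (63.6% to 79.1%). Around the site at −0.94 kb the shares were 55.3% (50.4% to 60.1%) without and 58.6% (48.7% to 67.8%) with Pcl3. Around the weak Tns1 site, the list held 15 of 430 without Pcl3, or 3.49% (2.13% to 5.67%), and 0 of 82 with Pcl3 (upper bound 4.47%). Over all strengths a Pcl3 center lay near 59.2% of sites in the depleted list and near 19.1% of those outside it. The median −log10 p of these groups was 53.5 and 10.4, and the difference between sites with and without Pcl3 was not tested.

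H3K27me3-depleted sites were rare at like strength as well. They accompanied 8.4% (6.27% to 11.2%) of sites like the Tle3 amplicon site, 7.8% of those like the Tns1 and 7.0% of those like the Tmem151a amplicon site, and 18.0% (14.9% to 21.6%) of those like the Ebf2 amplicon site. Among sites of like width in place of like p-value the shares were 14% for Tle3 and 12.3% for the Tmem151a amplicon site, and among sites of like p-value near gene starts that for Tmem151a was 4.6%. The broad Ebf2 site and the Cd248 site in the Tmem151a window were the members' sites with one.

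Width was not itself used to choose the loci, and it is set by the joining of windows. The Tle3 amplicon site, at 2400 bp, was wider than 98.4% of the 500 sites of like p-value, whose median was 1550 bp. The Tmem151a amplicon site, at 1850 bp, was wider than 93.0% of its like sites (median 1400 bp), and the Tns1 amplicon site, at 1650 bp, was wider than 73.6% (median 1450 bp). All 3 sites were thus above the median of like sites. The 7, 11 and 14 sites of like p-value outside the depleted list had median widths of 2050, 1900 and 1750 bp. Those in the list had medians of 1550, 1450 and 1400 bp. The Tns1 amplicon site was narrower than the median of its like sites outside the list. Sites outside the list were wider at these p-values, so the widths are not independent of how the loci were picked. The broad Ebf2 site, in the depleted list, was wider than 90.8% of its like sites (median 4300 bp). The depleted start site of Tmem151a was wider than 49.2% of its like sites and that of Tns1 than 68.2%.

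CpG density was counted over the whole site and over the central 500 bp. The Tle3 amplicon site held 192 CpG, or 8.0 per 100 bp, with a GC content of 65.7%, and was denser than 85.4% of sites of like p-value (median 5.57). In its central 500 bp it had 9.0 per 100 bp and was denser than 55.2%. The Tns1 amplicon site, at 3.76 per 100 bp, was denser than 13.6% of its like sites and the Tmem151a amplicon site, at 4.43, than 27%. Both had 5.2 per 100 bp in the central 500 bp, where their like sites had medians of 8.2 and 8.0. The 3 amplicon sites outside the depleted list therefore did not share a CpG density, since Tle3 was above the median of its like sites and the other two below.

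Depleted sites of the same genes also covered both ends. In the central 500 bp the start site of Tmem151a had 10.2 CpG per 100 bp, the Cd248 site 9.0 and the start site of Tns1 8.8. The strongest Tns1 site had 3.2, which was denser than 7.6% of like sites, and the Ebf2 sites had 5.0 and 4.8. The motif GCGCGC, which reads the same on both strands, was searched as a CpG-rich string. In the central 500 bp it was found at the Tle3 amplicon site, the Tns1 site at 87.4 kb and the upstream Ebf2 site. The motif was there at 37.5% of all Suz12 sites. Among sites of like p-value the shares were 51% for the Tle3, 44.1% for the Tns1 and 51.2% for the Ebf2 site, so it was common at these strengths. The motif was absent from the central 500 bp of the other 11 member sites.

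**Figure D3:**
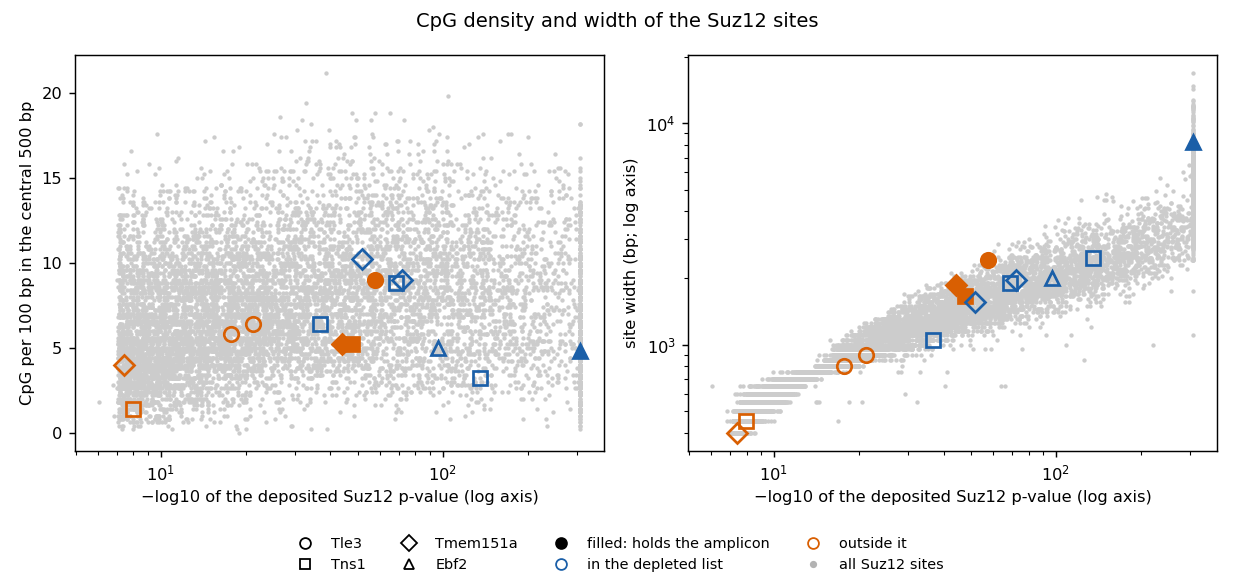
CpG per 100 bp in the central 500 bp (left) and width in bp on a log axis (right) of all 8876 Suz12 sites (gray) and the 14 member sites (symbols) against −log10 of the Suz12 p-value on a log axis. P-values written as 0 are placed at 307.2. On the right the Tle3 amplicon site lies at 2400 bp on the upper edge of the sites of its strength, and on the left the Tns1 and Tmem151a amplicon sites lie side by side at 5.2.

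The relatives of the 4 genes showed how far each pattern ran in its family. Of 6 Groucho genes, 5 had a Suz12 site and none had a depleted or a Pcl3 site. Among all genes with a Suz12 site, 71.7% had a depleted one and 47.7% a Pcl3 site. The depleted list held 64.5% of all Suz12 sites and none of the 8 distinct Suz12 sites of the Groucho genes. Apart from the Tle3 amplicon site they were weaker. The strongest sites had p-values of 5.06e-24 at Tle2, 3.82e-17 at Tle1, 6.51e-17 at Tle6 and 7.9e-12 at Aes, which encodes a short Groucho protein, and Tle4 had no site. Among Suz12 sites of like p-value, 74.4% of those like the strongest Tle2 site, 48.6% of those like the Tle1 site and 21.2% of those like the Aes site were in the depleted list. The share was 46.2% for the Tle6 site and 1.33% for the weakest Tle2 site. At these p-values absence from the list was common, and nothing is read from the family count. Aes, Tle2 and Tle6 are neighbors on chromosome 10, so the Groucho genes with Suz12 are not all separate loci. The Tle6 site, chr10:81050001-81050850, is also counted at Tle2. It had an H3K27me3-depleted center within 2 kb while it was outside the Suz12-depleted list.

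The Ebf family lay at the other end. All 4 genes had Suz12, depleted Suz12 and Pcl3 sites, against 71.7% (depleted) and 47.7% (Pcl3) of genes with a Suz12 site. The depleted list held 64.5% of all Suz12 sites and all 9 of the Ebf genes. The −log10 p of the Ebf sites ran from 71.9, for the second Ebf4 site, to 307.2. Both Ebf3 sites had p written as 0, the wider being 11600 bp, while the strongest Ebf1 site had a p-value of 3.3e-302 and the strongest Ebf4 site a p-value of 1.71e-182. At such p-values 99.8% to 100% of like sites were in the list.

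Tensins and Tmem151 genes were mixed. Tns3 had 2 Suz12 sites, both depleted (p-values 3.2e-24 and 3.67e-14), without a Pcl3 site, and Tns4 and Tenc1 had none. Tmem151b had a strong depleted site of 2500 bp with Pcl3 (p-value 1.72e-207) and a weaker site of 700 bp outside the list (p-value 7.62e-14). Among sites of like p-value, 74.2% and 37.6% were in the list for the Tns3 sites, and 100% and 35.6% for those of Tmem151b. Over their families, 5 of 7 tensin sites and 3 of 6 Tmem151 sites were in the depleted list, against 64.5% of all Suz12 sites.

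**Figure D4:**
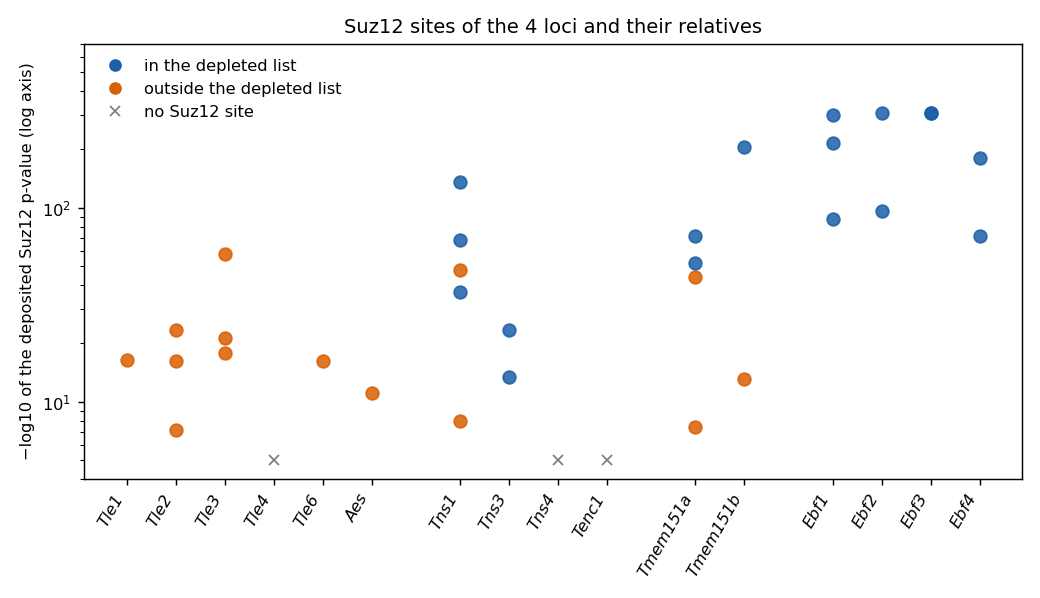
−log10 of the Suz12 p-value (vertical log axis) of every Suz12 site of the Groucho, tensin, Tmem151 and Ebf genes, 1 column per gene, with p-values written as 0 placed at 307.2 and the 2 Ebf3 sites on top of each other. Points in the depleted list are blue, points outside it orange, and a cross marks a gene with no Suz12 site. The Groucho columns hold orange points and the Ebf columns blue ones.

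Of the other 15 protein-coding loci with ChIP primers in the study, 10 had a Suz12 site and each of the 10 had a depleted one, against 71.7% of genes with a Suz12 site. The study chose these loci as well, and most had Suz12 sites at the strong end, where nearly all sites were in the list, so nothing is read from this count. The developmental regulators Otx2, Hoxb7, Hoxb13, Hoxa3 and Hand1 and the protocadherin Pcdh7 each had a Suz12 site with p written as 0, as Ebf2 did. Dusp4, a MAP kinase phosphatase, and Pmp22, a myelin protein, had strongest sites with p-values of 4.33e-272 and 9.06e-150. Acta1, skeletal muscle actin, had a site with a p-value of 1e-44, close to the Tmem151a amplicon site at 7.27e-45. The Acta1 site was depleted and the Tmem151a site was not. Eaf1, Ash2l, Dcaf8, Ift140 and Glrx5 had no Suz12 site.

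The genes whose strongest Suz12 site was nearest in −log10 p and had the same places in the other lists were named for each member as a description over 1 site per gene. For Tle3, of 1279 sites with no depletion, no Pcl3 and no H3K27me3 depletion, these were Gm10655, which shares the site, Gli2, a transcription factor of Hedgehog signaling (p-value 3.48e-55, 2300 bp), and Fam176a (p-value 2.7e-62, 1900 bp). For Tns1 they were Rnf217 (p-value 2.4e-136), L3mbtl3 (p-value 2.73e-136) and Exoc6 (p-value 1.56e-136), of 2072 sites with depletion and Pcl3. For Tmem151a they were Cd248, which shares the site, the homeobox factor Zfhx3 (p-value 1.85e-71) and Fbxo2 (p-value 5.51e-74), of 387 sites that also had H3K27me3 depletion. For Ebf2, 121 genes tied at p written as 0, and the nearest in width to its 8200 bp were the homeobox genes Tlx3 (8150 bp) and Hoxa9 (8400 bp) and the signaling ligand Wnt7b (8000 bp).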

How the data were processed

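Sites came from 10 ChIP-seq libraries (6 ChIP, 4 input). Per the study's methods, reads of 30 nucleotides were placed on mm9 by the authors with bowtie (version not given in the sources used here), and those with 1 best position were kept. Paired libraries were brought to equal background, windows of 400 bp were called with a Skellam test at 1e-07, and overlapping windows were joined. The deposited p-values, 1 per site, are the only measured values. All 5722 Suz12-depleted sites repeat the position and p-value of a binding site, so the size of a loss is unknown. The Pcl3 list holds 5242 sites and the H3K27me3-depleted list 678. Unique alignment leaves out repeats, and copy number differences would enter the lists. Whether the 2 Pcl3-TAP libraries were pooled is not given in the sources used here. P-values written as 0 were placed at the largest −log10 value, 307.2.

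Sites were assigned to GENCODE vM1 genes (body plus 5 kb). Positions are 1-based in mm9. Shares among the 500 sites nearest in −log10 p carry 95% Wilson intervals. Named genes were the members, their families, the study's other ChIP primer loci, genes sharing a window and the 3 nearest in p-value. Members, lists and alternatives were chosen with earlier results of these data known. The alternatives were other flanks, numbers of like sites, matching by width, chromosomes left out, sites near gene starts, other overlap rules and central CpG density. On simulated intervals the overlap code differed from a full search at 0 of 400 sites. Depleted labels were also simulated on the 8876 deposited Suz12 p-values, with the chance of a label set by −log10 p alone. The share among like sites was then recovered with a median error of 0.843 percentage points over 200 sites whose p was not written as 0. This checks the code only, since labels set by strength alone favor a small error. The tools were samtools 1.23.1, pysam 0.24.0, Python 3.11.15, matplotlib 3.10.9, scipy 1.17.1, pandas 2.3.3 and numpy 2.4.6. ChIP-qRT-PCR, arrays and microRNA loci were not analysed here. The sequence of the Ebf2 amplicon is not reported here.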

Additional observations from a re-analysis of the deposited data

How the results depend on the processing

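Of 180 alternative values, 135 stayed within the 95% interval (for counts, near the count) of the value in the report and 45 moved beyond it, with the cause not tested beyond the construction of each alternative. The number of members with an H3K27me3-depleted site fell to 1 (Ebf2) over the gene body alone and within 2 kb of the gene start, where the Cd248 site is left out. Matching by width moved the depleted share to 99.5% (Tle3), 99.2% (strongest Tns1 site) and 98.6% (strongest Tmem151a site), the Pcl3 share to 88.9% (Tle3), 87.5% and 67.2% (strongest and amplicon site of Tns1) and 72.8% (Tmem151a amplicon site), and the H3K27me3 share to 14%, 14.6%, 10.6% and 12.3% for the same sites. Near gene starts the H3K27me3 share was 6.2% (Tle3), 14.2% and 5.2% (strongest and amplicon site of Tns1) and 4.6% (Tmem151a amplicon site), and the Pcl3 share 94.4% (strongest Tns1 site) and 93.8% (Ebf2). With at least 1 bp shared the Pcl3 share was 95.4% (strongest Tns1 site) and 100% (Ebf2). Without chromosome 11 the H3K27me3 share of the strongest Tns1 site was 14%. With 100 like sites the Pcl3 share of the strongest Tns1 site was 94.0%, the H3K27me3 share 13.0% there, 7.0% at the strongest and 10.8% at the amplicon site of Tmem151a, the CpG percentile 89.0 (Tle3), 29.0 and 20.6 (strongest and amplicon site of Tmem151a) and the width percentile of the latter 96.1. With 1000 like sites the Pcl3 share of Ebf2 was 91.8% and its width percentile 95.4. In the central 500 bp the CpG percentile was 55.2 (Tle3), 19.2 (Tns1 amplicon site), 53.8 and 17.4 (strongest and amplicon site of Tmem151a) and 32.6 (Ebf2). Without flanks or with 10 kb flanks, 25.1% or 32.1% of genes had a Suz12 site, 18.2% or 23.1% a depleted one, 12.7% or 16.4% a Pcl3 site and 2.28% or 3.76% an H3K27me3-depleted site. Values for the amplicon sites of Tns1 and Tmem151a were chosen after seeing the data. No paired analysis was possible because each comparison is 1 list without columns for samples, and for the same reason no library could be left out. Without reads per site, a site just under the cutoff could not be told from one without a decrease.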
